A study of Mus musculus with 12 samples.

Results

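Male mice labelled mtOGG1 were set against control males, 3 mice a group, within a study of 12 mice that also held 3 females of each genotype. The mtOGG1 males and the control males shared the C57BL6/J background, an age of 13 months and the tissue, hippocampus, from which total RNA had been extracted. By the series title the mtOGG1 mice express OGG1 in mitochondria; neither the promoter of the transgene nor the tissues in which it acts is given in the labels. The comparison used every gene of the deposited table whose value exceeded 20, the lowest value the table holds, in at least 3 of the 12 mice: 608 of 770 genes were tested and 162 were not. Gene levels are normalized counts from the nCounter assay, in which colour-coded probes hybridised to RNA are counted without amplification. Fold changes are differences between group means of log2(value + 1), mtOGG1 minus control, and understate changes of genes near 20. The whole counts behind the values above 20 summed to between 320862 and 418467 per male, and the highest negative control reached 13 counts.

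OGG1, 8-oxoguanine DNA glycosylase, opens base excision repair by cutting oxidised guanine out of DNA. Mitochondrial DNA lies close to the respiratory chain, and fragments of it that reach the cytosol can be read by nucleic acid sensors that switch on interferon and inflammatory genes. In the hippocampus those genes are transcribed mostly by microglia, astrocytes and vessel cells, while neurons that have recently fired transcribe immediate early genes within minutes.

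The hippocampi of mtOGG1 males held less mRNA of the neuronal activity genes Arc and Fos, of the injury-response genes Lcn2 and Anxa1 and of the endothelial gene Ly6a, and more of the myelin gene Opalin. These 6 genes passed an adjusted p of 0.05 in limma over all 608 genes. The 5 lower genes are 0.822% of the genes tested and the 1 higher gene is 0.164%, or 0.987% in either direction. At an unadjusted p under 0.05 there were 81 genes, 13.3%, of which 36 were higher and 45 lower in mtOGG1 males. The 3 values of one group lay wholly above those of the other for 35 genes higher in mtOGG1 males (5.76%) and 73 lower (12.0%). Over all genes tested the median log2 fold change was -0.02, with 274 above 0 and 334 below.

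The number of calls depended on single mice. It was 14 without mtOGG1 male 2, 19 without mtOGG1 female 3, 11 without control female 2 and 10 without mtOGG1 female 1, and between 4 and 8 when any other mouse was left out. Females enter because all 12 mice share 1 estimate of each gene's spread. The p-values measure the spread between these samples, since the labels number the mice without saying how they were bred or processed, and an exact permutation test of 3 against 3 cannot go below p = 0.1. In whole tissue, fewer cells of a type and less RNA per cell cannot be told apart.

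**Figure D1:**
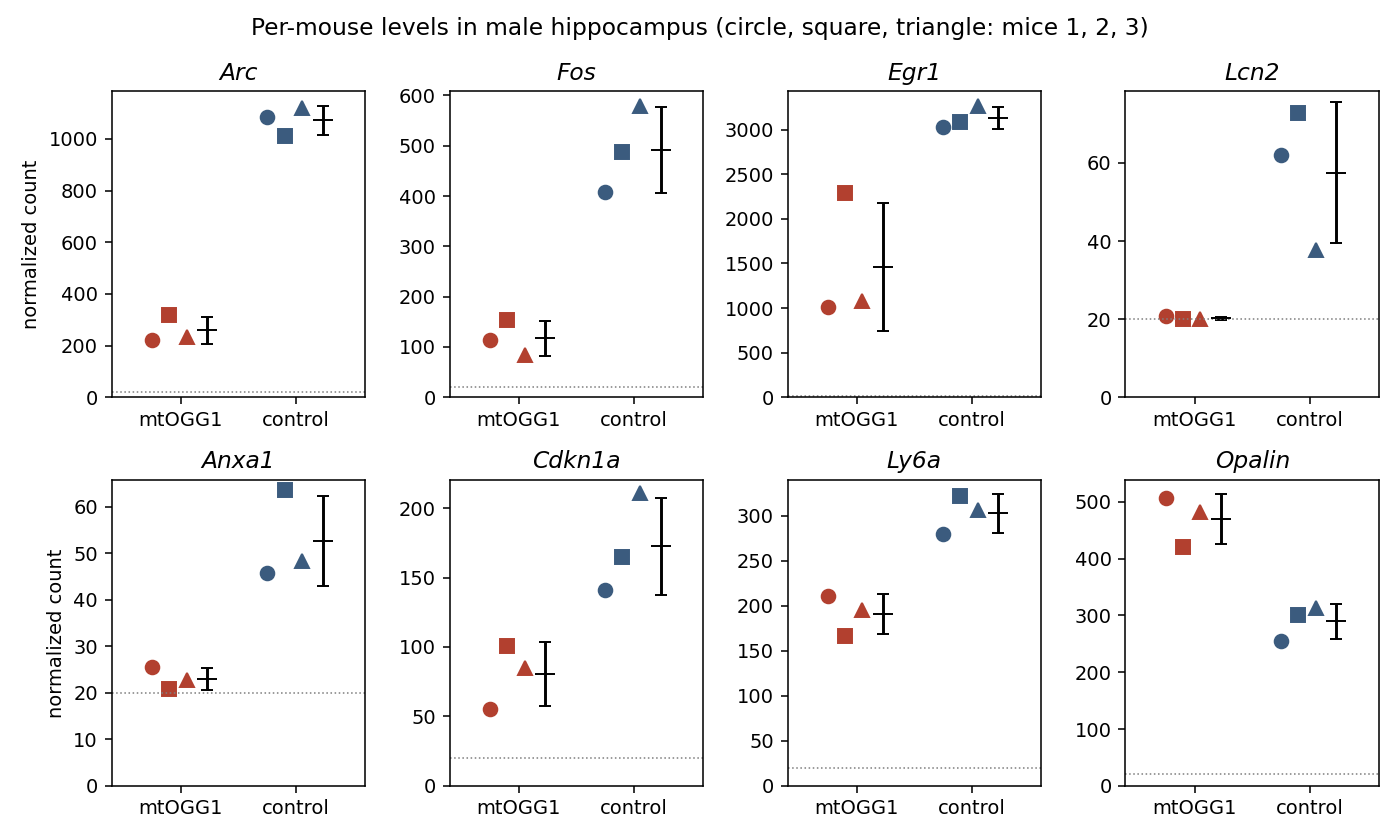
Normalized counts of 8 genes in each male (circle, square and triangle for mice 1, 2 and 3), mtOGG1 males in red on the left and control males in blue on the right of each panel; the bar beside them gives the mean ± SD (n = 3) and the dotted line is the floor of 20. The groups do not overlap in any panel, with Arc between 223 and 320.3 in mtOGG1 males and between 1011 and 1121 in control males.

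Immediate early genes were described first, because the pair with the smallest p-values is among them. Arc, whose protein removes AMPA receptors from active synapses, stood at 223, 320.3 and 234 normalized counts in mtOGG1 males, against 1084, 1011 and 1121 in control males. All 3 mtOGG1 males were below every control male, and the lowest control was 3.16 times the highest of them. The log2 fold change was -2.06 ± 0.28 (SE), adjusted p = 0.00164 (limma). Fos, a subunit of the AP-1 transcription factor, stood at 113, 153 and 85.0 in mtOGG1 males and 409, 488 and 579.8 in control males, again with no overlap. Its log2 fold change was -2.09 ± 0.30 (SE), adjusted p = 0.00164 (limma). Both genes passed in each of the 12 fits that left out 1 mouse, with log2 fold changes between -2.22 and -1.96 for Arc and between -2.30 and -1.88 for Fos.

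The other 5 members of the list were not called, and mtOGG1 male 2 stood nearer to the controls in several of them. Egr1, a zinc-finger transcription factor, stood at 1014, 2286 and 1080.0 in mtOGG1 males and 3034, 3088 and 3265 in control males, so that mtOGG1 male 2 was lower than the controls by far less than its group mates. Its log2 fold change was -1.20 ± 0.29 (SE) with an adjusted p of 0.0541 (limma), and -1.58 with an adjusted p of 0.00194 without mtOGG1 male 2. Egr1 passed in 5 of the 12 fits that left out 1 mouse, and the other mice left out in these were all females. Homer1, a postsynaptic scaffold, stood at 1007, 2097 and 1074 in mtOGG1 males and 2646, 2062 and 2439.9 in control males, with mtOGG1 male 2 inside the range of the controls (-0.85), and passed without that mouse (-1.19, adjusted p = 0.0432). The neurotrophin Bdnf stood at 156, 273 and 132 in mtOGG1 males and 251, 224 and 258 in control males, with mtOGG1 male 2 above every control and mtOGG1 males 1 and 3 below them. Jun, the partner of Fos in AP-1, ran the other way, at 360.1, 420.2 and 353 in mtOGG1 males and 292, 339 and 285 in control males, without overlap (0.30, adjusted p = 0.408). Myc, a growth regulator, gave 0.15 (adjusted p = 0.736). Of the 7 members 5 were below 0 and 2 above, 2 were called, and the median log2 fold change was -0.85.

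The upstream sequences of Fos and Homer1 are shown because both genes are classed as activity-induced and differed in how mtOGG1 male 2 stood: with the rest of its group for Fos and with the controls for Homer1. TGACG, the half-site of the cAMP response element through which neuronal activity can induce genes, is in capitals, and its reverse complement CGTCA was searched as well. The windows run 5′ to 3′ on the plus strand and end at the base before the annotated start of the gene, as given by RefSeq on GRCm38.p6. Fos lies at chr12:85473640-85473889 and the first of the 2 Homer1 starts in the table at chr13:93303507-93303756.
Fos: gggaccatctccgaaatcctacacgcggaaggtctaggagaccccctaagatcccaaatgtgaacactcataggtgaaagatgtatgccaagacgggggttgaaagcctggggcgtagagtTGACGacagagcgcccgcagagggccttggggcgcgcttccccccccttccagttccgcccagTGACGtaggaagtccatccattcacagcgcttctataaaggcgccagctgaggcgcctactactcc
Homer1: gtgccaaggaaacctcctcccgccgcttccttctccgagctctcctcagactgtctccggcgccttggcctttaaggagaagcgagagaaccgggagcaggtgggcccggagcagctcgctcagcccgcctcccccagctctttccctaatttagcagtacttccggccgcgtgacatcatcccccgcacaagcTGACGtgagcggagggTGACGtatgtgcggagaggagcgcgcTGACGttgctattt
Fos held 2 matches, 129 and 66 bases before the start, and Homer1 held 3, at 56, 40 and 14 bases before it. Of 32851 promoter windows of the same length, 17.8% held at least 1 match on either strand, 3.9% at least 2 and 0.688% at least 3. A match is a property of the letters alone; binding was not measured. Arc and Egr1 are named only.

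Genes of reactive glia and injury came next in p. Lcn2, a secreted iron-siderophore carrier that reactive astrocytes release, stood at 20.7, 20 and 20.1 in mtOGG1 males, at or just above the floor, against 62.0, 72.8 and 37.7 in control males. The log2 fold change was -1.41 ± 0.21 (SE; adjusted p = 0.00216, limma), with mtOGG1 male 2 at the floor, where the level itself is not known. Anxa1, annexin A1, a phospholipid-binding protein of the glucocorticoid response, stood at 25.4, 20.8 and 22.8 in mtOGG1 males and 45.8, 63.6 and 48.4 in control males (-1.15 ± 0.18, SE, adjusted p = 0.00297, limma). Here mtOGG1 male 2 was the lowest of its group for Anxa1, unlike its place among the immediate early genes. Lcn2 and Anxa1 passed in all 12 fits that left out 1 mouse.

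Hspb1, Srgn and S100a10 were lower in every mtOGG1 male than in any control male without passing. Hspb1, a small heat shock protein, stood at 65.0, 46.5 and 81.3 in mtOGG1 males and 111, 158 and 119 in control males (-1.01, adjusted p = 0.056). Srgn, the proteoglycan serglycin, gave -0.53 (adjusted p = 0.0611), and S100a10, the partner of annexin A2, gave -0.45 (adjusted p = 0.0723). The list was not uniform, for Serpina3n, a protease inhibitor of reactive astrocytes, was higher in every mtOGG1 male, at 66.0, 84.0 and 60.3 against 32.5, 36.0 and 55.0 in control males (0.78, adjusted p = 0.232). Of 19 members tested 13 were below 0 and 6 above, 2 were called, and the median was -0.16; the other 6 members of the list in the table were at the floor in all 6 males.

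Oligodendrocyte genes lay on the other side of 0. Opalin, a membrane protein of the myelin paranodal loop, stood at 506, 420.2 and 482 in mtOGG1 males and 255, 301 and 313 in control males, with no overlap (0.70 ± 0.13, SE, adjusted p = 0.0155, limma). It missed the threshold without control male 1 (0.61, adjusted p = 0.0984), mtOGG1 male 1 (0.64, 0.0927) or mtOGG1 male 3 (0.67, 0.0716). Of the 17 oligodendrocyte and myelin genes tested 16 were above 0, 1 was called, and the median log2 fold change was 0.38. Plxnb3, a semaphorin receptor enriched in oligodendrocytes, stood at 125, 102 and 123 in mtOGG1 males and 68.2, 83.0 and 72.2 in control males (0.64, adjusted p = 0.0541). The myelin glycoproteins Mog, at 577, 480.5 and 749 in mtOGG1 males and 374, 476 and 397 in control males, and Mag gave 0.52 and 0.57 (adjusted p = 0.167 and 0.186).

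For Mog mtOGG1 male 2 stood close to control male 2, the highest of the controls, at 480.5 against 476, whereas for Opalin and Plxnb3 it lay above all 3 controls. Slc17a6, the marker of subcortical neurons given below, was high in mtOGG1 males 1 and 3 as well. A further 12 genes enriched in oligodendrocytes had a median of 0.20, with 11 above 0 and none called. That median was 0.37, with 12 of 12 above 0, without mtOGG1 male 2, and -0.03, with 5 of 12 above 0, without mtOGG1 males 1 and 3 together. Among them Pllp, plasmolipin, stood at 149, 103 and 152 in mtOGG1 males and 75.3, 95.9 and 105 in control males, and Pmp22, a myelin protein of peripheral nerve, gave 0.45 (adjusted p = 0.291). Enpp6, which marks newly forming oligodendrocytes, gave 0.28 (adjusted p = 0.468).

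Endothelial and pericyte genes were all lower, 10 of 10 below 0 with a median of -0.32, and 1 was called. Ly6a, a GPI-anchored surface protein of brain endothelium, stood at 211, 167 and 196 in mtOGG1 males and 279.7, 323 and 307 in control males (-0.67 ± 0.14, SE, adjusted p = 0.0253, limma). The groups did not overlap, but the call was lost without any 1 of control males 1, 2 and 3 (adjusted p = 0.0579, 0.109 and 0.145) or without mtOGG1 male 2 (0.0508) or 3 (0.0716). The adhesion molecule Pecam1 stood at 117, 91.9 and 99.6 in mtOGG1 males and 132, 142 and 132 in control males (-0.40, adjusted p = 0.294). Esam, an adhesion molecule of endothelial junctions that was picked after its values were seen, gave -0.36 (adjusted p = 0.422) and Abcc8, a potassium channel subunit found in brain pericytes, gave -0.24 (adjusted p = 0.683), both without overlap. Nostrin, which binds endothelial nitric oxide synthase, gave -0.24 with overlapping groups (adjusted p = 0.633).

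**Figure D2:**
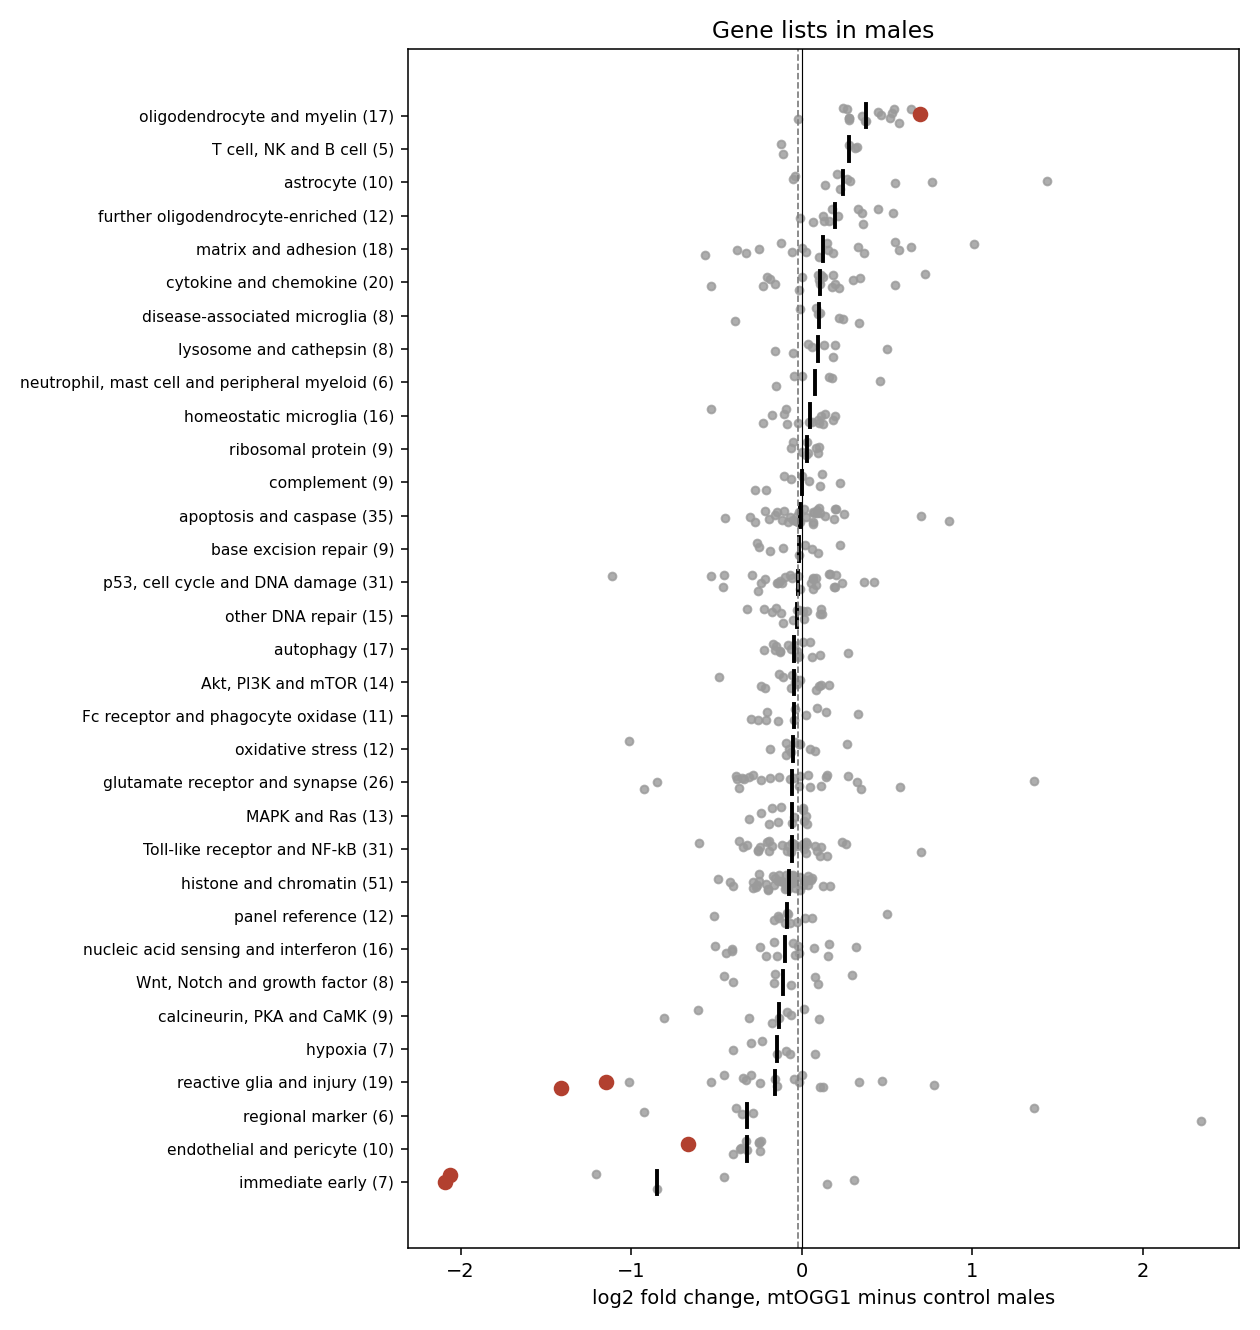
Log2 fold change, mtOGG1 minus control males, of each tested gene, by gene list, for lists of 5 or more such genes (number in brackets); grey points are single genes, red points genes at an adjusted p under 0.05, black bars list medians, and the dashed line the median of all genes tested (-0.02). The list medians run between -0.85 for immediate early genes and 0.38 for oligodendrocyte and myelin genes.

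Markers of neighbouring tissue differed between the mice as well. In the regional marker list 2 of 6 genes, Slc17a6 and Ttr, were above 0 and 4 below (median -0.32), with none called. The lowest was Dlx1 (-0.93), given below. Dlx2 stood at 20, 20 and 20 in mtOGG1 males and 20, 26.7 and 34.45 in control males. Slc17a6, the vesicular glutamate transporter of subcortical neurons, stood at 1597, 403 and 1229.8 in mtOGG1 males and 222, 726 and 286 in control males, high in mtOGG1 males 1 and 3 and inside the control range in mtOGG1 male 2 (1.37, adjusted p = 0.372). Ttr, transthyretin of the choroid plexus, stood at 1173, 1361 and 1525 in mtOGG1 males and 35.6, 1510.2 and 336 in control males (2.34, adjusted p = 0.515). Agt, angiotensinogen, made by astrocytes, followed the order of Slc17a6, at 370.4, 103 and 344 in mtOGG1 males and 49.8, 176 and 73.0 in control males. Summed levels of 5 oligodendrocyte markers were 5918, 4764 and 6525 in mtOGG1 males, against 3558, 4794 and 3976 in control males. Summed levels of 5 endothelial markers were 491, 449.8 and 440.4 in mtOGG1 males, against 529, 606 and 604 in control males. Neuronal markers (5 of 6 measured) summed to between 8117 and 11103 in mtOGG1 males and between 8271 and 9073 in control males. Astrocyte markers (3 of 5) summed to between 3798 and 4264 in mtOGG1 males and between 3733 and 4451 in control males. Most of the astrocyte sum was Slc1a3, at 3159, 3508 and 3018 in mtOGG1 males and 3056, 3562 and 3312 in control males. In the wider astrocyte list, described below, 8 of 10 genes were above 0. The T cell markers Cd3d, Cd3e and Cd3g and the B cell marker Ms4a1 were at the floor in all 6 males.

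The called genes and the lists above were fitted again with Slc17a6 as a covariate. Arc was then -1.83 and Fos -1.88 (adjusted p = 0.00963 and 0.00971), Lcn2 -1.47 (0.00963) and Anxa1 -1.34 (0.00397). Opalin moved to 0.62 and Ly6a to -0.64, each at an adjusted p of 0.0813 and no longer called. The median of the immediate early genes moved to -0.30, with Homer1 at -0.30 (adjusted p = 0.733) and Egr1 at -0.78 (adjusted p = 0.256). The reactive glia and injury median moved to -0.27, with 17 of 19 below 0. The oligodendrocyte and myelin median moved to 0.15 with 14 of 17 above 0, and that of the further oligodendrocyte genes to 0.03 with 7 of 12 above 0. The endothelial and pericyte median was -0.30, with 10 of 10 below 0. With Ttr as the covariate Opalin and Ly6a reached adjusted p-values of 0.0652 and 0.0905. In both fits 5 genes passed: Arc, Fos, Lcn2, Anxa1 and Hspb1 (-1.35, adjusted p = 0.00963, with Slc17a6 and -1.22, adjusted p = 0.0365, with Ttr). Slc17a6 and Ttr were themselves higher on average in mtOGG1 males, so either covariate can take up part of the genotype difference. A moved value or a lost call in these fits cannot separate tissue content from genotype.

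Set mouse by mouse against the control mean, the median immediate early gene was -1.23, -0.18 and -1.14 in mtOGG1 males and 0.01, -0.08 and 0.07 in control males. The oligodendrocyte and myelin median was 0.50, 0.14 and 0.61 in mtOGG1 males and -0.18, 0.21 and -0.05 in control males, so that mtOGG1 male 2 lay under control male 2. The endothelial and pericyte median was -0.23, -0.35 and -0.42 in mtOGG1 males and -0.07, 0.08 and -0.05 in control males. Only in the last of these lists was mtOGG1 male 2 between its group mates. Among the 81 genes at an unadjusted p under 0.05, mtOGG1 male 2 was the mouse of its group nearest to the control mean for 50, mtOGG1 male 1 for 16 and mtOGG1 male 3 for 15. Of the 608 genes 336 lay inside the control range in mtOGG1 male 2, 273 in mtOGG1 male 1 and 250 in mtOGG1 male 3. For each of the 6 called genes mtOGG1 male 2 was outside that range.

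**Figure D3:**
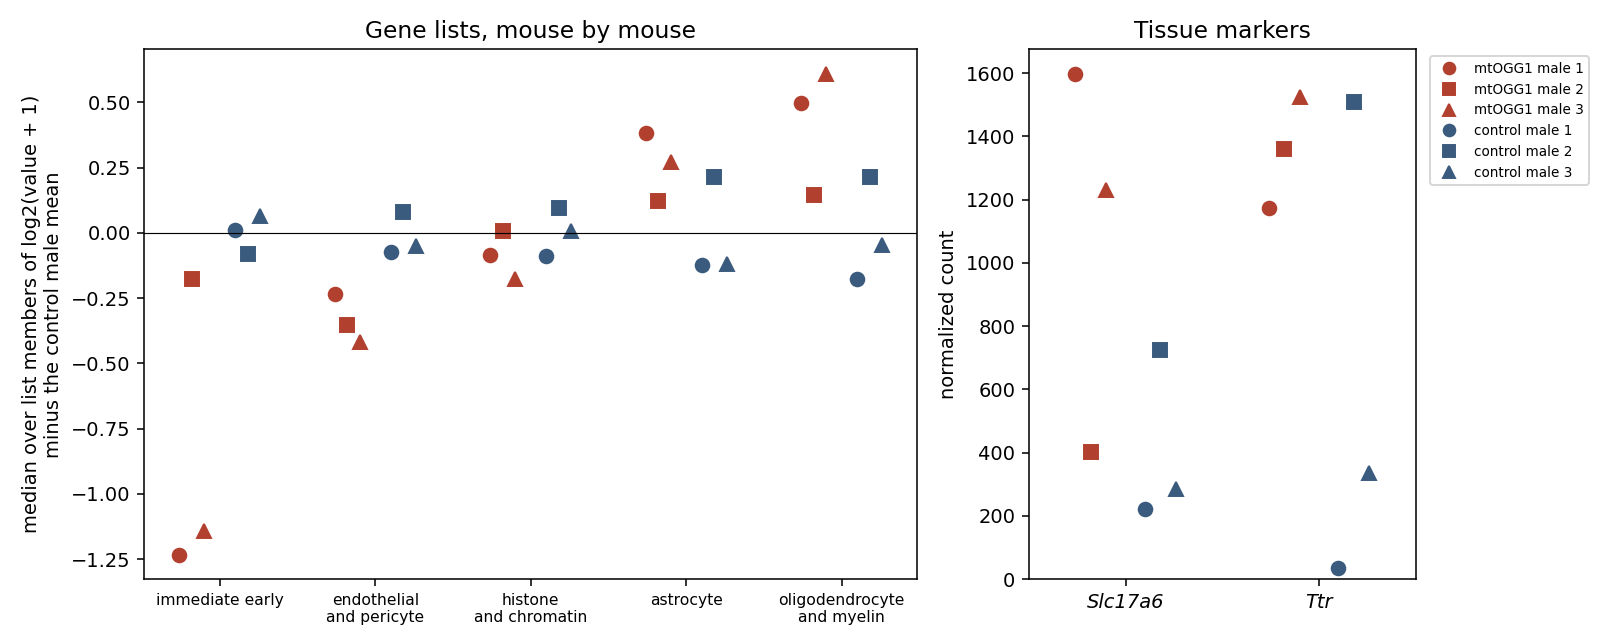
Left, the median over the members of 5 gene lists of log2(value + 1) minus the control male mean, 1 symbol a mouse (circle, square and triangle for mice 1, 2 and 3; mtOGG1 males red, control males blue). Right, normalized counts of Slc17a6 and Ttr in the same mice: mtOGG1 male 2 (red square) stands apart from mtOGG1 males 1 and 3 in Slc17a6 (403 against 1597 and 1229.8) and in the immediate early and oligodendrocyte lists.

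Neuronal signalling genes, mostly outside the immediate early list, had mixed values, none called. Camk4, a calcium/calmodulin-dependent kinase that phosphorylates CREB, stood at 551, 789 and 467 in mtOGG1 males and 960.2, 1000.4 and 1132 in control males (-0.81, adjusted p = 0.155), and Prkar2b, a regulatory subunit of protein kinase A, gave -0.61 (adjusted p = 0.205). In both mtOGG1 male 2 was the highest of its group. Of the 9 calcineurin, protein kinase A and CaM kinase genes 7 were below 0 (median -0.13), or 8 without mtOGG1 male 2 (-0.20). Without mtOGG1 males 1 and 3 together 4 were below 0 (0.0002), and with Slc17a6 as a covariate 5 (-0.05). Dlg1, the synaptic scaffold SAP97, was lower without overlap (-0.55, adjusted p = 0.145), as was the interneuron transcription factor Dlx1, at 81.1, 91.9 and 39.3 in mtOGG1 males and 114, 131 and 138 in control males. Syn2, the vesicle protein synapsin II, was higher without overlap, at 2887, 3597 and 2714 in mtOGG1 males and 2309, 2641 and 2349.7 in control males (0.33, adjusted p = 0.19). The 26 genes of the glutamate receptor and synapse list also count Homer1, Slc17a6 and Dlx1. Their median was -0.05, with 10 above 0 and 16 below, or 13 and 13 with scaling on the panel reference genes. That scaling raised all genes alike, and the median over all genes tested from -0.02 to 0.04. Without mtOGG1 male 2 the list median was -0.21, with 8 above 0. Without mtOGG1 males 1 and 3 together it was 0.15, with 18 above 0, so no direction can be given.

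Astrocyte genes had a median of 0.24, with 8 of 10 above 0 and none called; with Slc17a6 as a covariate the median was 0.10 and with Ttr 0.15, each with 8 of 10 above 0. Gdpd2, a glycerophosphodiester phosphodiesterase, stood at 78.2, 52.4 and 63.0 in mtOGG1 males and 31.5, 50.7 and 32.0 in control males (0.76, adjusted p = 0.118), and the laminin receptor subunit Itga7 stood at 81.1, 56.4 and 74.0 in mtOGG1 males and 46.8, 55.3 and 41.0 in control males (0.55, adjusted p = 0.155). In both, control male 2 nearly reached mtOGG1 male 2. Among 18 matrix and adhesion genes 12 were above 0 (median 0.13), with none called. Without mtOGG1 male 2 the median was 0.07 with 13 of 18 above 0. With either Slc17a6 or Ttr as a covariate it was 0.02, with 10 and 9 of 18 above 0. Tspan18, a tetraspanin, stood at 36.8, 38.6 and 61.2 in mtOGG1 males and 20, 24.9 and 20 in control males (1.01, adjusted p = 0.0541). Igsf10 and Plxdc2 were also higher without overlap, at 0.57 and 0.37, while the collagen chain Col6a3 and the integrin subunit Itgav were lower without overlap, at -0.56 and -0.38 (adjusted p = 0.0664, 0.155, 0.184 and 0.205).

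Microglial genes gave no call. The fractalkine receptor Cx3cr1 stood at 451, 436 and 416 in mtOGG1 males and 364, 389 and 394 in control males (0.18, adjusted p = 0.619), and its neuronal ligand Cx3cl1 at 719, 952 and 637 in mtOGG1 males and 1085, 1105 and 1099.8 in control males (-0.53, adjusted p = 0.157). The receptor was above all controls in every mtOGG1 male and the ligand below them. Over all genes tested 5.76% were higher and 12.0% lower without overlap, so such a separation is not particular to this pair. The 95% intervals of Csf1r (-0.08 to 0.47), the receptor microglia need to survive, and of the lipid sensor Trem2 (-0.15 to 0.59) included 0. The homeostatic microglia list, which also counts the neuronal ligand Cx3cl1, had a median of 0.05 with 9 of 16 above 0. Disease-associated microglia had 0.10 with 6 of 8 and complement 0.0007 with 5 of 9. Fc receptors with phagocyte oxidase had -0.05 with 4 of 11. None of these 4 lists kept its direction throughout. Without mtOGG1 male 2 the homeostatic median was -0.03 with 7 of 16 above 0, and without mtOGG1 males 1 and 3 together it was 0.12 with 12 of 16. With Slc17a6 as a covariate 4 of 8 disease-associated, 1 of 9 complement and 2 of 11 Fc receptor and oxidase genes were above 0 (medians -0.006, -0.15 and -0.24), and with scaling on the panel reference genes the last of these medians was 0.01 with 6 of 11. Apoe, the lipid carrier, gave 0.24 (adjusted p = 0.457), and the antigen presentation chaperone Cd74 -0.39 (adjusted p = 0.591).

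Interferon and nucleic acid sensing genes were measured mostly at low levels and gave no call, with 4 of 16 tested above 0 and 12 below (median -0.10), or 8 and 8 when the mice were scaled on the panel reference genes. Rsad2, the antiviral enzyme viperin, stood at 29.2, 23.7 and 27.4 in mtOGG1 males and 38.6, 47.0 and 31.2 in control males (-0.51, adjusted p = 0.183). The RNA sensor Ifih1 stood at 66.9, 58.3 and 56.6 in mtOGG1 males and 76.3, 88.5 and 83.7 in control males (-0.44, adjusted p = 0.189), and the interferon regulator Irf7 at 20, 20 and 24.7 in mtOGG1 males and 25.4, 36.0 and 26.2 in control males. All 3 were lower without overlap, as was the class I gene H2-T23, at 41.5, 62.3 and 65.8 in mtOGG1 males and 78.3, 94.0 and 90.2 in control males (-0.65, adjusted p = 0.167). Of the 16 interferon and nucleic acid sensing genes tested, 3 were lower without overlap and 13 overlapped, beside 12.0% lower over all genes tested. The DNA sensor cGAS (Mb21d1) and the cytokines Il1b and Tnf were at the floor in all 12 mice, and Nlrp3, an inflammasome sensor, in all 6 males. Tmem173, which encodes STING, exceeded the floor in 2 mtOGG1 males, at 22.7 and 20.1, and in no control male. No direction can be given for these 5 genes, which were not tested.

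Cytokine receptors and NF-kB genes held values on both sides of 0. Il1r1, the interleukin-1 receptor, stood at 81.1, 68.2 and 70.3 in mtOGG1 males and 44.8, 44.3 and 42.6 in control males (0.72, adjusted p = 0.142), and the interleukin-6 receptor Il6ra gave 0.55 (adjusted p = 0.249). The TNF receptor adaptor Tradd stood at 28.3, 33.6 and 42.9 in mtOGG1 males and 21.4, 21.2 and 20 in control males (0.70, adjusted p = 0.114). The kinase Map3k1 and the adaptor Bcl10 were lower without overlap, at -0.60 and -0.37 (adjusted p = 0.232 and 0.183). Of 20 cytokine and chemokine genes tested 14 were above 0 (median 0.11), and of 31 Toll-like receptor and NF-kB genes 13 (median -0.06), or 16 with scaling on the panel reference genes and 6 with Slc17a6 as a covariate. Casp1, the single inflammasome gene tested, gave 0.19 (adjusted p = 0.777).

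DNA repair, damage response and cell death genes were not called either. Ogg1 itself stood at 40.5, 45.5 and 32.9 in mtOGG1 males and 42.7, 40.6 and 36.1 in control males (-0.01, 95% interval -0.39 to 0.36, adjusted p = 0.978); the sources used here do not say whether its probe reads the transgene, so the level does not check the genotype, and its sign turned under other scalings. Parp2, a strand break sensor, gave -0.25 and the DNA ligase Lig1 0.23 (adjusted p = 0.424 and 0.664). The 9 base excision repair genes had a median of -0.01 and the 15 other repair genes -0.03. Cdkn1a, the p53 target that encodes the cell cycle inhibitor p21, stood at 55.6, 101 and 85.0 in mtOGG1 males and 141, 165 and 211 in control males. The groups did not overlap (-1.11 ± 0.25, SE, adjusted p = 0.0524, limma). Cdkn1a passed in 4 of the 12 fits that left out 1 mouse. These were the fit without mtOGG1 male 2 (-1.29, adjusted p = 0.0221) and fits that each left out a female. E2f1, a cell cycle transcription factor, was also lower in every mtOGG1 male (-0.53, adjusted p = 0.264), while Mcm2, a replication helicase subunit, was higher (0.36, adjusted p = 0.468) and the inhibitor Cdkn1c overlapped (0.42). The 31 members of the p53, cell cycle and DNA damage list had a median of -0.02.

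Cidea, a lipid droplet protein grouped with the cell death genes, stood at 52.8, 45.5 and 49.3 in mtOGG1 males and 29.5, 27.7 and 22.96 in control males (0.86, adjusted p = 0.0541), and the executioner caspase Casp6 gave -0.45 (adjusted p = 0.21). The 35 apoptosis genes had a median of -0.01. Srxn1, which reduces oxidised peroxiredoxins, gave -0.19 without overlap (adjusted p = 0.607), and the 12 oxidative stress genes had a median of -0.05. Scaling on the panel reference genes moved all genes alike and raised the median over all genes tested from -0.02 to 0.04. It put the base excision repair, other repair, p53, apoptosis and oxidative stress medians above 0, at 0.05, 0.03, 0.04, 0.05 and 0.01. No direction can be given for these lists, whose side of 0 depended on the scaling. Of 51 histone and chromatin genes 41 were below 0 (median -0.07), among them Kdm3a, a histone H3 lysine 9 demethylase, at 210.2, 205 and 220.2 in mtOGG1 males and 282, 319.9 and 293 in control males (-0.49, adjusted p = 0.0664), and the Polycomb methyltransferase Ezh2 (-0.42, adjusted p = 0.3). When each mouse was scaled on 12 panel reference genes, 28 of the 51 were below 0, against 43 with median centring and 40 with quantile normalization. The count below 0 thus depended on the scaling. With the reference genes the list median was -0.01, beside 0.04 over all genes tested, against -0.07 beside -0.02 without that scaling. Without mtOGG1 males 1 and 3 together 24 were below 0 and 27 above (median 0.006). The deacetylase Hdac1 was above 0 with all mice in the fit (0.17, adjusted p = 0.633).

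Growth factor and kinase genes closed the list. Vegfa, a vessel growth factor, stood at 329.9, 244 and 298 in mtOGG1 males and 334, 411 and 405 in control males (-0.40, adjusted p = 0.196), and Fgf13, a binding partner of sodium channels, was higher without overlap (0.29, adjusted p = 0.244). The kinases Akt2 and Pik3ca were lower without overlap, at -0.48 and -0.24, whereas Akt1 was higher without overlap at 0.11 (adjusted p = 0.189, 0.243 and 0.664). Chst8, a Golgi sulfotransferase, stood at 167, 125 and 123 in mtOGG1 males and 66.1, 78.4 and 95.1 in control males (0.79, adjusted p = 0.149). Tbp, the TATA-binding protein and a reference gene of the panel, stood at 171, 212 and 165 in mtOGG1 males and 266, 266 and 244 in control males (-0.51, adjusted p = 0.0541), while the reference gene Gusb gave 0.50 (adjusted p = 0.215). The 12 reference genes tested had a median of -0.08, with 3 above 0 and 9 below.

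At the floor, 147 genes stood at 20 in all 6 males and 553 exceeded 20 in all 6. The mice had similar numbers of genes at the floor, 186, 197 and 185 in mtOGG1 males and 189, 166 and 195 in control males. Of the 70 genes above the floor in 1 to 5 males, 24 exceeded it in more mtOGG1 than control males, 37 in more control males and 9 in equal numbers. No gene was at the floor in all 3 mice of one group and above it in all 3 of the other. A difference of at least 2 mice was seen for 13 genes, 4 with more mtOGG1 males above the floor and 9 with more control males. The 4 were Tspan18, Tmem173, the surface receptor Slamf9, at 26.4, 27.7 and 26.5 in mtOGG1 males and 20, 20 and 24.6 in control males, and the endocytic adaptor Dab2, named after its values were seen. The central complement protein C3 was among the 9, at 20, 20 and 20 in mtOGG1 males and 20, 30.4 and 23.8 in control males.

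Lymphocyte genes were mostly at the floor: of 30 T cell, natural killer and B cell genes on the panel, 24 were at 20 in all 6 males and 5 were tested. Ptprc, which encodes the leukocyte antigen CD45, stood at 33.9, 31.6 and 33.8 in mtOGG1 males and 23.4, 26.7 and 28.7 in control males (0.33, adjusted p = 0.61). Of 40 cytokine and chemokine genes on the panel, 17 were at the floor in all 6 males. At these levels a difference was not detectable, and the values do not show that these transcripts are absent.

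Whether the males differed from the females was tested as an interaction over all 12 mice. No gene passed (0% of 608), and 29 had an unadjusted p under 0.05, no more than that threshold yields if no gene differs. Of these, 21 were among the 81 of the males, an overlap partly built in because the interaction contains the male difference. Lcn2 ranked first by p, with a log2 fold change of -1.41 in males and -0.18 in females, a difference of -1.23 (95% interval -1.87 to -0.58, adjusted p = 0.404). Without control male 3 this difference was -1.50 (adjusted p = 0.0197). Lcn2 exceeded the floor in 6 of the 12 mice, 5 of them males, so that a lower level in mtOGG1 females could not have been seen and the difference cannot be told apart from an effect of the floor. Opalin was 0.70 in males and 0.02 in females, Itga7 0.55 and -0.41, Tradd 0.70 and -0.18, and Enpp6 0.28 and -0.41 (adjusted p of the differences 0.604, 0.404, 0.892 and 0.892). Arc was -2.06 in males and -1.34 in females and Fos -2.09 and -1.16, with 95% intervals of the difference -1.58 to 0.14 and -1.83 to -0.03. The oligodendrocyte and myelin median was 0.38 in males and 0.02 in females, and the endothelial and pericyte median -0.32 in males and -0.02 in females; the differences of these medians were not tested.

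**Figure D4:**
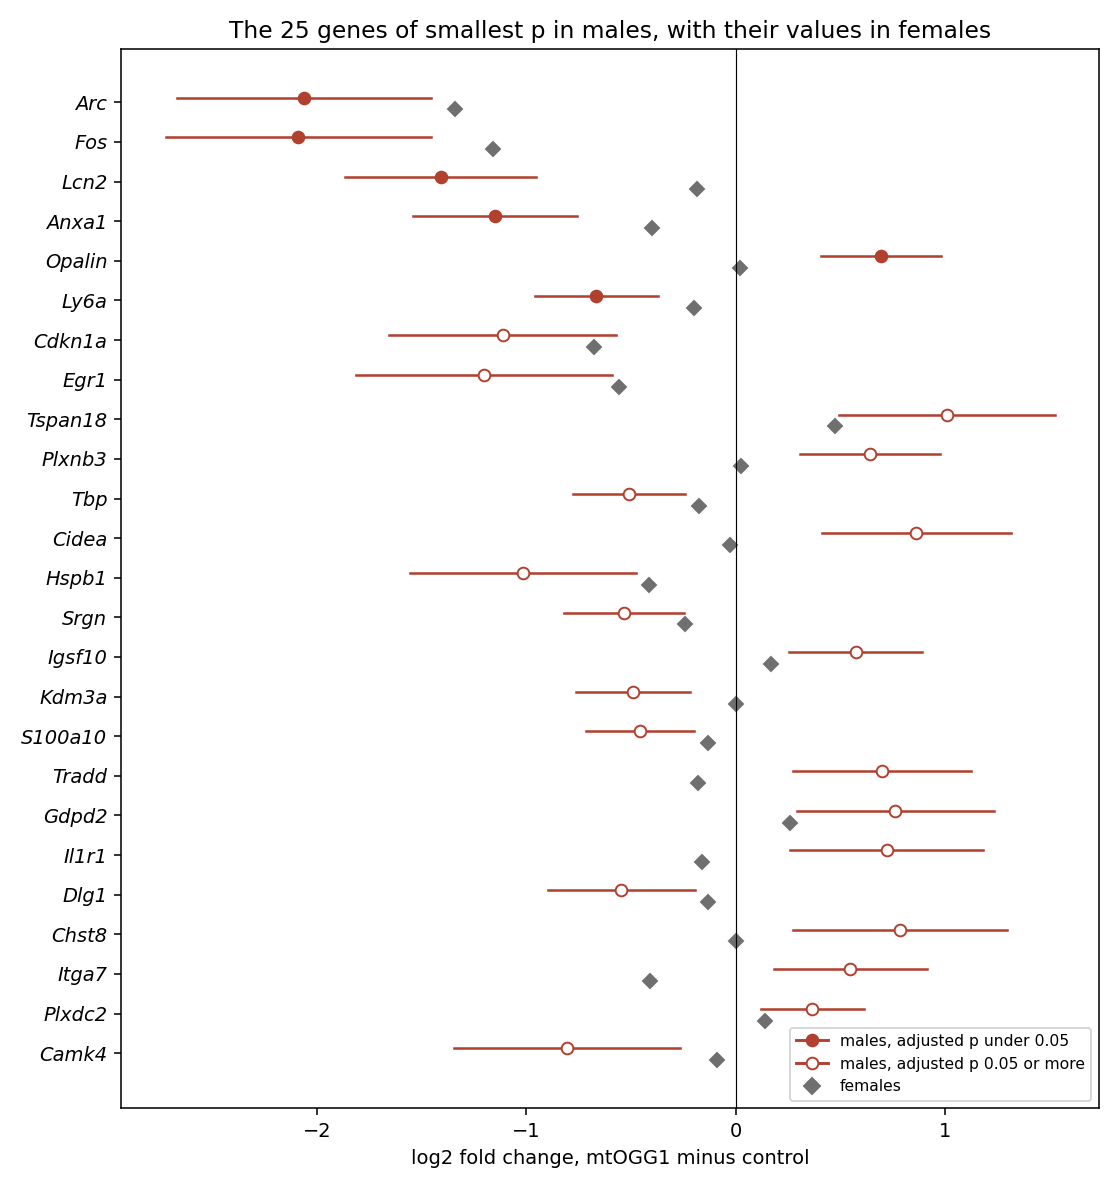
Log2 fold change, mtOGG1 minus control, of the 25 genes with the smallest p in males (red circles with 95% intervals, filled at an adjusted p under 0.05) and of the same genes in females (grey diamonds, value only), 3 mice a group. The genes were picked by their values in males; Arc is -2.06 in males and -1.34 in females, and Opalin 0.70 and 0.02.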

How the data were processed

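Total RNA from hippocampus was hybridised to an nCounter panel, per the labels' protocols; the panel they name is a metabolic one, whereas the table's genes are largely neuroinflammation genes. The deposited values are a normalized signal, for which the design text credits the authors' use of the nCounter Advanced Analysis software. Above 20 every value lay within 0.01 of a whole count multiplied by a factor of its mouse (0.820 to 1.02 in males), and lower values had been raised to 20. The sources used here do not give the basis of these factors. Count models were not used. Sample medians of log2 values differed by up to 0.242 between males.

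Groups came from the sample labels. Values were fitted as log2(value + 1) with limma 3.58.1 in R 4.3.3: 4 group means, variances moderated with a trend, and p-values adjusted by Benjamini-Hochberg over 608 genes, with a threshold of 0.05. The interaction is the male minus the female difference. Lists are described by counts and medians. The genes, lists and mice compared were chosen with earlier results of these data known, and the lists of ribosomal, calcineurin with kinase, and further oligodendrocyte genes were added after the gene names were seen. Genes named are those called, filled to 25 by p, the 2 highest and 2 lowest members of each list, the 5 smallest interaction p-values and a fixed set; others are marked in the text. All 770 gene symbols matched the RefSeq gene table, 7 of them as synonyms, and coordinates are given only for the printed promoter windows, on the RefSeq build, because no build is stated for the deposited table. Replicates of a group differed beyond sampling noise (chi-square per degree of freedom 2.47 to 16.1). The fit was tested on simulated data. Alternatives changed the pseudocount, filter, scaling, variance model, samples and covariates. Grin1, Aqp4, Gfap, Siglech, Cd79a, S100a8 and S100a9, listed as cell type markers, were not analysed here. Figures were drawn with matplotlib 3.10.9.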

Additional observations from a re-analysis of the deposited data

How the results depend on the processing

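The 6 genes called in males numbered 0 with no filter on low values (67 at an unadjusted p under 0.05), 0 with an ordinary linear model (60 at that level), 12 with median centring or with no variance trend, 11 with scaling on the panel reference genes or with robust moderation, 19 with quantile normalization and 10 with the males alone; apart from the 2 settings with 0, all 6 were kept in each of these. The pseudocounts of 5 and 20 gave 6 and 7, the other 3 filters between 4 and 7, and Slc17a6 or Ttr as a covariate 5. Leaving out 1 mouse gave between 4 and 19. Without mtOGG1 males 1 and 3 together, an alternative chosen after seeing the data that leaves 1 mtOGG1 male assumed to vary like the other groups, 0 genes passed and 32 had an unadjusted p under 0.05; Arc was then -1.74 and Fos -1.66 (adjusted p = 0.0979 each). The interaction gave 0 calls in every fit other than those that left out 1 mouse, which gave between 0 and 1.

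With the replicate number as a block 9 genes passed, among them the same 6, with Egr1, Cdkn1a and Dlg1. The numbers share no stated source, and mice of the same number deviated from their group means with correlations over genes of -0.05, -0.34 and -0.10, so they were not taken as pairs.

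Of 80 genes named with values, 76 kept their direction under all alternatives. Bdnf was 0.16 and Pmp22 -0.038 without mtOGG1 males 1 and 3 together, and Ttr was -0.18 with Slc17a6 as a covariate. Ogg1 was 0.046 with scaling on the panel reference genes, 0.0044 with quantile normalization, 0.074 and 0.043 with Slc17a6 and Ttr as covariates, 0.19 without mtOGG1 males 1 and 3 together, and between -0.12 and 0.11 when 1 mouse was left out. The cause of these shifts was not tested. Groups of 3 limit the precision, and the floor of 20 hides the levels of 147 genes in the males.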
